A study of Mus musculus with 90 samples.

Results

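The Zscan4 genes of the mouse form a cluster of near-identical copies on chromosome 7. They were taken as the rows of the deposited count table whose symbol is Zscan4a, Zscan4b, Zscan4c, Zscan4d, Zscan4e or Zscan4f. Of these 6 genes, 5 had a row (Zscan4e had none) among 24422 gene rows. Zscan4f had 0 counts in each of the 90 libraries, so that 4 genes had a count anywhere, and 3 of them (Zscan4a, Zscan4c and Zscan4d) passed the filter on low counts, among 16511 genes that did.

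ZSCAN4 proteins carry a SCAN domain, through which such factors pair, and zinc fingers that bind DNA. Their transcripts are a hallmark of zygotic genome activation in the mouse: they appear in a burst at the late 2-cell stage, are gone soon after, and are re-expressed only in rare bursts in embryonic stem cells, where they are known for a part in telomere lengthening and genome stability. DUX, DPPA2 and DPPA4 are upstream activators of this transient 2-cell programme, which also holds Zfp352 and the Tdpoz and Usp17l genes.

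Each library came from 1 oocyte or embryo, was read at the transcripts' 5′ ends with identifiers that mark single molecules, and held added ERCC spike-in RNA. The libraries formed 2 multiplexed pools, libA and libB in the labels and called pools A and B below, in which each has a position code of a row letter and a number. The 6 groups were MII oocytes from WT females (n = 16) and from Plag1 KO females (n = 16), picked 21 to 23 h after hCG, 2c embryos (14 WT and 14 matPlag1KO, 45 to 47 h), and 8c embryos (15 and 15, 71 to 73 h), the embryos' times being hpf in the labels. The females of the CD-1 colony were sexually mature and superovulated, and all embryos were sired by WT studs, so that matPlag1KO embryos lacked the maternal Plag1 allele, replaced over its open reading frame by lacZ, but held an intact paternal one. The donor female of each embryo is not named, so p-values measure the spread between single oocytes or embryos.

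After 12 libraries with a median under 1 CPM were left out, 78 remained. Their gene counts ranged from 92475 to 256529 at 2c and from 214053 to 2502421 at the other stages. Plag1 itself had 326 counts in WT and 4 in KO oocytes, which follows the labels, but 1 count in WT 2c embryos and 91 in embryos labelled matPlag1KO, the opposite order, with counts in 1 of 11 and 9 of 11 libraries. The matPlag1KO embryos held an intact paternal Plag1 allele, and the labels were kept. Each direction given at 2c below rests on them. Oocyte markers (Zp1, Zp2, Zp3, Gdf9, Bmp15, Oosp1) summed to 4168 to 22780 CPM in oocytes, 1485 to 8608 CPM at 2c and 14.3 to 390 CPM at 8c, and 5 of the 7 listed 2-cell markers in the table had counts at 2c. Of 6 cumulus cell markers, 0 had a count in WT oocytes and 2 in KO oocytes, and their sum ranged from 8.63 to 106 CPM in WT and from 0 to 87.6 CPM in matPlag1KO embryos at 2c.

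The sequences around the starts of these genes set what a 5′ read can tell. In mm9 the 5 genes of the table lie between 11379590 and 11987667 on chromosome 7 and span 4311 to 4825 bases each. Zscan4b and Zscan4f are annotated from the same first bases, and the matching bases lie 15, 23 and 34 bases before the annotated starts of Zscan4a, Zscan4c and Zscan4d. From this common start the first 50 bases of Zscan4a, Zscan4b, Zscan4d, Zscan4e and Zscan4f were identical and occurred at 8 places in mm9. Zscan4c alone differed within them, by the single change G23A (the base of Zscan4b, its position counted from 1 at the common start, and the base of Zscan4c), so that its first 25 bases from this start occurred once. From its annotated start, 23 bases further on, the first 25 bases occurred at 10 places and the first 50 at 1. A read of 50 bases from the annotated start of Zscan4d, 34 bases further on, was likewise found at 1 place, and one from that of Zscan4f at 8. The read length and the handling of reads that match several copies are not given in the sources used here. How far they set the counts of Zscan4a, Zscan4b, Zscan4c, Zscan4d and Zscan4f was not tested.

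**Figure D1:**
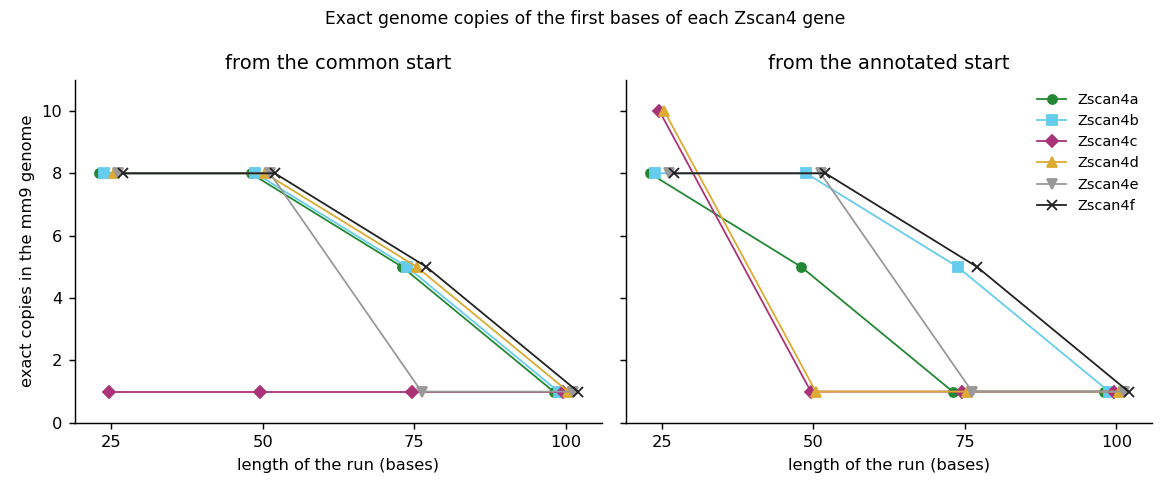
Number of exact copies in the mm9 genome (y axis, both strands) of the first 25, 50, 75 and 100 bases (x axis) of each Zscan4 gene, counted from the start the copies share (left) and from the annotated start (right); points are shifted sideways for visibility. From the common start Zscan4c has 1 copy at each length, and the other 5 genes have 8 copies up to 50 bases and 1 at 100 bases.

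The 250 bases before the common start are given for Zscan4c and Zscan4d, which held most counts, and for Zscan4f, which had none. They read 5′ to 3′ in the direction of the gene, at chr7:11590821-11591070 (plus strand), chr7:11751532-11751781 (minus strand) and chr7:11983014-11983263 (plus strand) of mm9. Capitals mark TATAAA and, where present on the same strand, TGATTNAAT, which resembles the core of the sequence that DUX recognises.
Zscan4c: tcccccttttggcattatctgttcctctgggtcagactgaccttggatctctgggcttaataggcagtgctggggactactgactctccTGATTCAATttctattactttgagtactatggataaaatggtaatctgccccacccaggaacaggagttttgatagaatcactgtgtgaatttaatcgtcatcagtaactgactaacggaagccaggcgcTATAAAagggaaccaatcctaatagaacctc
Zscan4d: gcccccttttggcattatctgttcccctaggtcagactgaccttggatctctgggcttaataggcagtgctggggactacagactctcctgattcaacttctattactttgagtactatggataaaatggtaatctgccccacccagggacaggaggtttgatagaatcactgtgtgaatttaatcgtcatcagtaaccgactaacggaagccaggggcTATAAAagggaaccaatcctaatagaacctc
Zscan4f: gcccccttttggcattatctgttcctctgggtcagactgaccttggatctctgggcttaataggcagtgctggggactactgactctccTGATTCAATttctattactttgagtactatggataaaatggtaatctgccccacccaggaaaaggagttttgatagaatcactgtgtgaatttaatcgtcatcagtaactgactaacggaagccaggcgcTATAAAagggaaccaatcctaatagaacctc
In each of the 6 genes TATAAA began 31 bases before the common start and CCAAT 19 bases before it, on the strand of the gene. TGATTNAAT, searched on both strands, began 161 bases before the start in Zscan4c and Zscan4f, lay on the other strand in Zscan4a, Zscan4b and Zscan4e, and was not found in Zscan4d. No match of one motif overlapped another in the printed runs. Among 32851 RefSeq promoters of GRCm38.p6, 250 bases before to 50 after a start and including 4 Zscan4 genes, 13.6% held TATAAA, 37.4% CCAAT and 0.718% TGATTNAAT. Over the 120 bases next to the start, Zscan4c and Zscan4f differed at 1 base and Zscan4c and Zscan4d at 4, and their coding sequences were 99.6% and 97.7% identical. Over the first 100 bases from the common start, Zscan4f differed from Zscan4c at 4 bases. There it differed from Zscan4a at 1, from Zscan4d at 2, and from Zscan4b and Zscan4e at 3 each.

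Zscan4 counts were highest at the 2c stage in both genotypes, and Zscan4c and Zscan4d made up most of them. Over the kept libraries Zscan4c and Zscan4d together had 62 of the 69 counts of the cluster in WT 2c embryos and 206 of 216 in embryos labelled matPlag1KO. Zscan4a had 6 counts in each group and Zscan4b 1 and 4. Since one 5′ tag is read per molecule, levels were not divided by length. They are given as CPM, counts scaled to a library of 1000000 gene counts, on TMM-scaled library sizes unless stated.

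**Figure D2:**
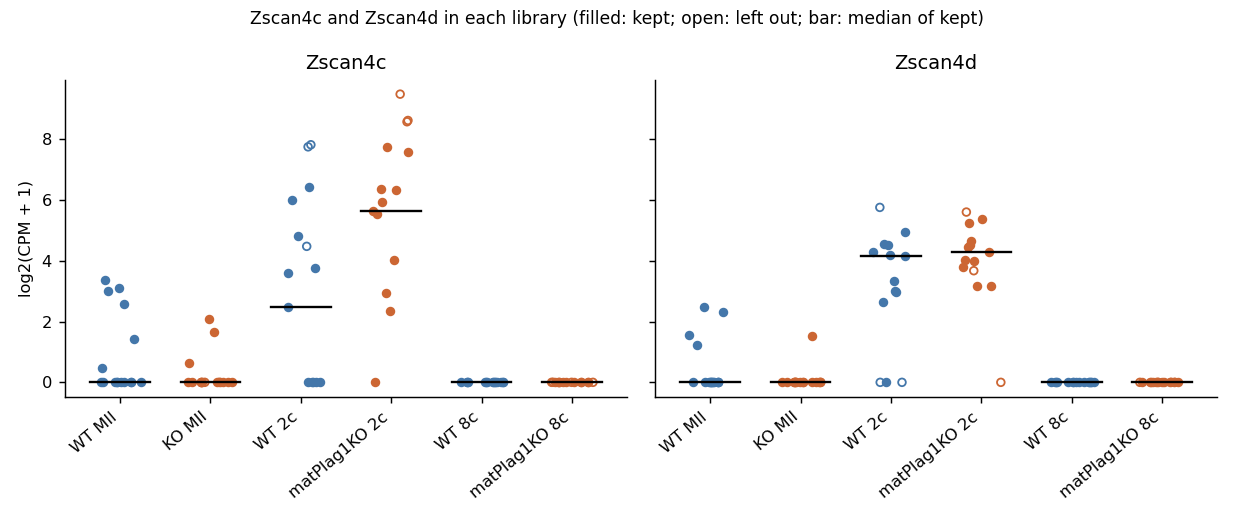
Level of Zscan4c (left) and Zscan4d (right) as log2(CPM + 1) in each of the 90 libraries, by group (blue WT, orange KO or matPlag1KO). Filled points are the 78 kept libraries on TMM-scaled sizes, open points the 12 left out on raw totals, and bars the medians of the kept libraries. Both genes are at 0 in every 8c embryo and highest at 2c.

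In MII oocytes the cluster was close to the limit of detection. Zscan4c had counts in 6 of 16 WT oocytes, with a lowest and a median of 0 and a highest of 9.43 CPM (mean 1.93 ± 3.29, SD), and in 3 of 14 KO oocytes, with a highest of 3.28 CPM (0.425 ± 1.00, SD). Zscan4d had 5 counts in 4 WT oocytes and 2 counts in 1 KO oocyte. Zscan4a had 3 counts, all in 1 WT oocyte, and Zscan4b 1 count, in a KO oocyte. The ranges of the genotypes overlapped for each gene.

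Between the genotypes, 0 of the 3 tested genes were called in oocytes, where 0.781% of all tested genes were called (edgeR, adjusted p under 0.05). For Zscan4c the log2 fold change, KO against WT, was -1.86 ± 0.77 (SE, edgeR adjusted p = 0.333), and at an unadjusted p under 0.05 it and Zscan4a (p = 0.0354) were counted, as were 10.2% of all tested genes. Zscan4d was at -1.01 ± 0.61 (adjusted p = 0.779). With the position as a replicate block in limma-voom, which fits the pairs of WT and KO oocytes from equal positions of the 2 pools, Zscan4a (-0.70, adjusted p = 0.0409) and Zscan4d (-0.94, adjusted p = 0.0118) were called, from 3 and 7 counts in all. Zscan4a had 0 counts in KO oocytes, so that its fitted value depends on the prior count. DESeq2 called 0 and gave no adjusted p for Zscan4a.

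The Zscan4c counts of oocytes went with the row letter of the position code. All 9 oocytes with a Zscan4c count sat in row A of their pool, 6 WT oocytes of pool A (20 counts in 8 libraries) and 3 KO oocytes of pool B (4 counts in 7 libraries), and the 15 oocytes in row B of either pool had 0 counts among 8343302, which allows at most 3. Zscan4d was found in 2 oocytes of row A and 3 of row B. Row and genotype were crossed between the pools at this stage, and the part of the row in the Zscan4c difference was not tested.

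From MII to 2c, measured against spike-in RNA, Zscan4d rose in both genotypes, and Zscan4a and Zscan4c rose in matPlag1KO. In WT embryos 1 of 3 tested genes was called higher, Zscan4d, against 14.1% of all tested genes, and in matPlag1KO embryos 3 of 3, against 13.5%. Of these 3, Zscan4a had counts in only 1 oocyte and passed the filter on low counts through the 2c libraries. Its call as higher at 2c was thus partly set by that filter and adds no support. The log2 fold change of Zscan4d was 2.66 ± 0.62 in WT (SE, edgeR adjusted p = 1.71e-04) and 4.14 ± 0.68 in matPlag1KO (adjusted p = 4.32e-07). That of Zscan4c was 1.32 ± 0.74 in WT (adjusted p = 0.109) and 5.24 ± 0.86 in matPlag1KO (adjusted p = 3.58e-07). The median over all tested genes was -1.46 in WT and -1.42 in matPlag1KO.

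Zscan4a had 0 counts in KO oocytes and 6 in matPlag1KO 2c embryos. Per spike-in count the latter was 2.62-fold a floor of 3 counts over the oocytes, a ratio that leaves out the counting error at 2c. Zscan4a was called (edgeR adjusted p = 0.00338), though DESeq2 gave it no adjusted p and an unadjusted p of 0.566. It was not called in pool A alone (2.10, edgeR adjusted p = 0.116). In WT it was not (1.26 ± 0.74, adjusted p = 0.133). With TMM factors in place of spike-in RNA, all 3 genes were called higher in WT too, Zscan4c at 2.95 (adjusted p = 3.36e-04). Zscan4c was called in WT in pool B alone (4.69, adjusted p = 0.00102), where WT oocytes had 0 counts of it and the value depends on the prior count. The difference of the rise of Zscan4c between the genotypes was 3.92 ± 1.15 on the log2 scale, higher in matPlag1KO (edgeR interaction, adjusted p = 0.0507), where 1.89% of all tested genes were called. It was called with TMM factors (3.77, adjusted p = 0.0287) and with all libraries above 1000 gene counts (4.36, adjusted p = 0.0187), and not in pool A (5.75, adjusted p = 0.31) or pool B (0.24, adjusted p = 0.671) alone. In pool A the KO oocytes, and in pool B the WT oocytes, had 0 counts of Zscan4c, so that these 2 values depend on the prior count. The interaction was 1.48 ± 0.91 for Zscan4d (adjusted p = 0.505). The interaction and its alternatives were added after the data were seen.

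Individual 2c embryos differed widely in Zscan4c. In the 11 WT embryos its counts were 0 in 5 (positions C2 and D5 of pool A, C3, C4 and C8 of pool B), 1 and 2 in positions C2 and C6 of pool B, 2 in C3 of pool A, 5 in C7 of pool B, 11 in D4 of pool A and 12 in C5 of pool B. In the 11 embryos labelled matPlag1KO they were 24, 15, 1, 1 and 0 in positions D1, D2, D6, D7 and D8 of pool A, and 17, 15, 2, 53, 21 and 10 in D2, D4, D5, D6, D7 and D8 of pool B. Thus 2 WT and 6 matPlag1KO embryos had over 10 counts of Zscan4c, while most WT embryos and 4 matPlag1KO embryos had 2 or fewer.

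**Figure D3:**
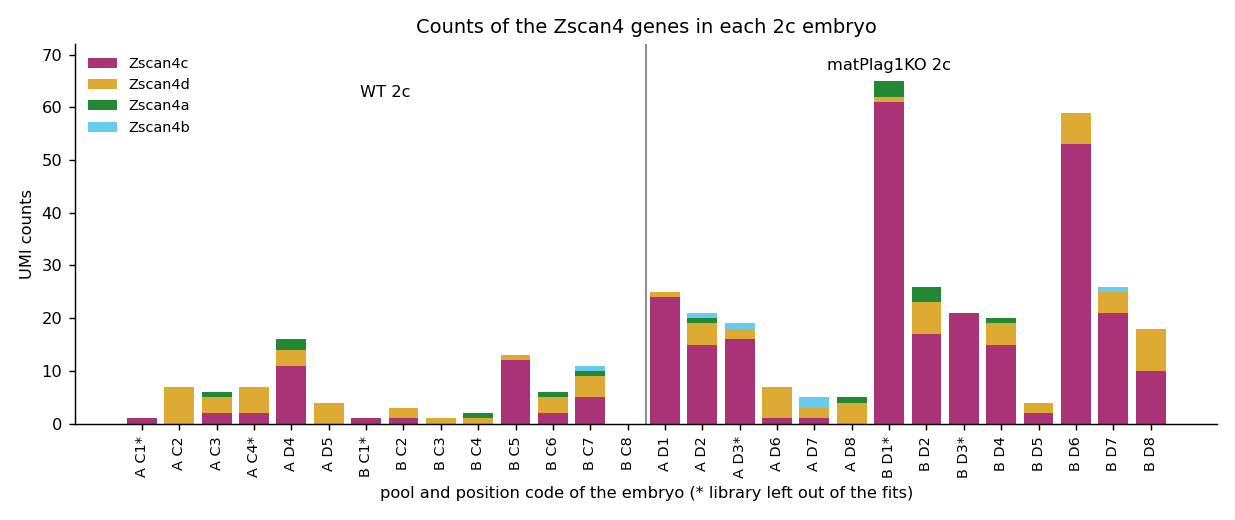
Counts of Zscan4c, Zscan4d, Zscan4a and Zscan4b (stacked, y axis) in each of the 28 embryos of the 2c stage, by genotype, pool and position (x axis); an asterisk marks the 6 libraries left out of the fits. The tallest stacks, 65 and 59 counts, are matPlag1KO embryos in positions D1 and D6 of pool B, and the WT embryo in position C8 of pool B had 0.

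On the CPM scale Zscan4c had a lowest, median and highest of 0, 4.56 and 84.9 in WT (mean 18.5 ± 29.1, SD, n = 11) and of 0, 48.7 and 216 in matPlag1KO (68.1 ± 73.2, SD, n = 11). Only 2 of 11 matPlag1KO embryos lay above the highest WT embryo and 9 of 11 above the WT median, so that the groups overlapped. In pooled counts, 159 against 33, the ratio was 4.27 (95% exact counting interval 2.92 to 6.41, which covers counting error only). The log2 fold change was 1.92 ± 0.68 (SE), with an unadjusted p of 0.00635 and an adjusted p of 0.0806 (edgeR). Zscan4c was therefore not called, and 0 of the 3 tested Zscan4 genes were, against 4.92% of all tested genes (2.3% higher and 2.62% lower). At an unadjusted p under 0.05 Zscan4c was the only one of the 3 in edgeR, where 20.5% of all tested genes passed. The summed oocyte markers were also higher in this group, with a median of 4760 CPM against 3332 in WT. Of the 6 markers, Bmp15 alone was called (1.84, edgeR adjusted p = 0.011). Zp1, Gdf9 and Oosp1 were at 0.42, 0.24 and 0.20, and Zp2 and Zp3 at -0.05 and -0.94. The median log2 fold change of the 6 was 0.22, beside 0.12 over all tested genes. The part of the oocyte markers in the Zscan4c difference was not tested.

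This call depended on the setting. Zscan4c was called when all libraries with at least 1000 gene counts were used (2.70, edgeR adjusted p = 0.00432), when only the 2 groups at 2c were fitted (2.00, adjusted p = 0.0284), and in limma-voom with the pool as a term, without (2.01, adjusted p = 0.0196) or with the position as a replicate block (1.98, adjusted p = 0.0375). It was not called by DESeq2 (adjusted p = 0.235), with spike-in RNA as the library size (2.22, adjusted p = 0.103), or in pool A (1.37, adjusted p = 0.724) or pool B alone (2.23, adjusted p = 0.085). Without the WT embryo of position D4 of pool A it was called (2.35, adjusted p = 0.0379), as without that of position C5 of pool B (2.52, adjusted p = 0.0285), the 2 WT embryos highest in Zscan4c. Leaving out 1 embryo at a time moved the log2 fold change between 1.54 and 2.52. A two-sided permutation test of the mean log2(CPM + 1), for this gene alone and not adjusted over genes, gave a difference of 2.49 (p = 0.0315). That test took the kept embryos of both pools together. Its exact form gave 1.299 within pool A (p = 0.571) and 3.5 within pool B (p = 0.0152). The tests by pool were added after the data were seen. The p-value over both pools thus does not stand for a difference found in each pool.

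**Figure D4:**
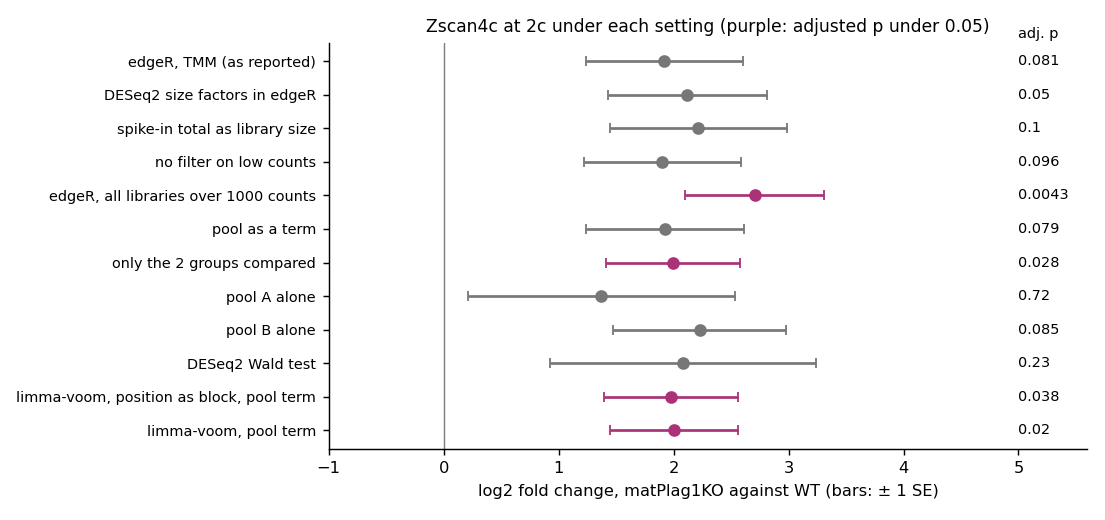
Log2 fold change of Zscan4c at 2c, matPlag1KO against WT (x axis, points), with 1 SE on either side (bars), under each setting of the fit (y axis); adjusted p-values are printed at the right, and purple marks those under 0.05. All 12 estimates lie above 0, between 1.37 and 2.70, and 4 of them are called.

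Row letters were nearly the same as genotypes at 2c. All kept matPlag1KO embryos sat in row D, and 9 of the 11 WT embryos in row C (22 Zscan4c counts among 1366876). The other WT embryos sat in positions D4 and D5 of pool A, with 11 and 0 counts of Zscan4c. The same positions of pool B held matPlag1KO embryos with 15 and 2 counts. Apart from these positions, row and genotype cannot be told apart at 2c.

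Zscan4d was spread more evenly over embryos. It was found in 10 of 11 WT embryos, with a lowest, median and highest of 0, 16.8 and 30.2 CPM (mean 14.2 ± 9.13, SD), and in 11 of 11 matPlag1KO embryos, with 7.97, 18.5 and 40.2 CPM (20.2 ± 10.5, SD). The ranges overlapped except for 4 WT embryos under the lowest and 2 matPlag1KO embryos over the highest of the other group. The log2 fold change was 0.50 ± 0.58 (SE, edgeR adjusted p = 0.66), and the pooled ratio 1.44 (95% exact counting interval 0.885 to 2.37). Within pool A it was -0.39 (adjusted p = 0.989) and within pool B 1.14 (adjusted p = 0.452), so that its sign was not the same in both.

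The make-up of the cluster differed in the pooled counts of each genotype. Zscan4c made up 47.8% of the counts in WT 2c embryos (33 of 69, exact 95% interval 35.6% to 60.2%) and 73.6% in matPlag1KO (159 of 216, 67.2% to 79.4%). Zscan4d made up 29 of 69 (30.2% to 54.5%) and 47 of 216 (21.8%, 16.4% to 27.9%). These intervals cover counting error and not the spread between embryos, and the 53 counts of 1 matPlag1KO embryo enter them. The shares rest on reads as assigned to each copy, and the part of reads that match several copies was not tested. By embryo, Zscan4d exceeded Zscan4c in 7 of 11 WT embryos, Zscan4c exceeded Zscan4d in 3, and 1 had neither. In matPlag1KO, Zscan4c was ahead in 7 of 11, Zscan4d in 3, and in 1 they were equal.

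Zscan4a was found in 5 WT and 4 matPlag1KO embryos (3.25 ± 4.05 and 2.17 ± 3.49 CPM, SD, n = 11 each), a log2 fold change of -0.38 ± 0.87 (SE, edgeR adjusted p = 0.942). Zscan4b was found in 1 and 3 embryos and was not tested. For Zscan4f, 0 counts among 1659010 and 1873299 allow up to 1.81 and 1.60 CPM of reads assigned to it. These limits do not cover its transcripts, since its first 50 bases occurred at 8 places in mm9 and the handling of such reads is not given. A difference was not detectable for either gene from these counts.

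Summed over the cluster, the level per embryo had a lowest, median and highest of 0, 30.2 and 92.0 CPM in WT (36.4 ± 32.1, SD, n = 11) and of 20.3, 83.0 and 241 CPM in matPlag1KO (91.9 ± 70.9, SD, n = 11). The ratio of the means was 2.52, and it was 2.68 on raw gene totals and 3.12 per spike-in count. In pool A the means were 44.5 ± 31.9 (SD, n = 4) and 71.6 ± 74.0 (n = 5), and in pool B 31.8 ± 33.7 (n = 7) and 109 ± 70.0 (n = 6). Of matPlag1KO embryos 4 of 11 lay above the highest WT embryo, and 4 WT embryos lay under the lowest matPlag1KO embryo.

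Zscan4c and Zscan4d did not run closely together over embryos. Over the 22 kept libraries Pearson's r of log2(CPM + 1) was 0.304, and it was 0.291 in WT and -0.0327 in matPlag1KO, given as a description since the counts are few and the embryos share 2 pools. The r of Zscan4c with the total of gene counts was 0.00139 over the 22 kept libraries, -0.377 in the 11 kept WT libraries and -0.434 over all 28. Its r with Zfp352, a zinc finger gene of the same programme, was 0.559, with 0.676 in WT and 0.264 in matPlag1KO, and 0.145 over all 28. Among the 28 are 2 WT libraries of low coverage, whose 215 and 226 CPM of Zscan4c rest on 1 count each.

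At the 8c stage the cluster had no reads assigned to it at this depth. All 5 genes had 0 counts in 15 WT embryos (8095469 gene counts) and in 11 matPlag1KO embryos (4512661). This allows up to 0.371 and 0.665 CPM of assigned reads per gene. Between 2c and 8c all 3 tested genes were called lower in WT, against 16.2% of all tested genes, and all 3 in matPlag1KO, against 19.5%. Zscan4a had counts in only 1 oocyte, so it passed the filter on low counts through the 2c libraries. Its fall to 8c was thus partly set by that filter and adds no support. Per spike-in count, Zscan4c at 2c was 18.2-fold a floor of 3 counts over the 8c group in WT (edgeR adjusted p = 1.28e-05). In matPlag1KO it was 51.9-fold this floor (adjusted p = 2.19e-07). The 2c counts enter these ratios as observed, so their counting error and the spread between embryos are left out.

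The same ratios to the floor for Zscan4d were 16.0-fold in WT and 15.3-fold in matPlag1KO (edgeR adjusted p = 4.43e-08 and 1.58e-07). Zscan4a, with 6 counts at 2c in each genotype, had ratios of 3.31-fold and 1.96-fold (adjusted p = 0.00219 and 0.0113) and was not called within either pool alone. DESeq2 gave Zscan4a no adjusted p at this step, with unadjusted p-values of 0.473 and 0.61. Between the genotypes 0 of 3 genes were called at 8c, against 1.74% of all tested genes, and with 0 counts on both sides no fold can be given. DESeq2 called 0, and 0 had an unadjusted p under 0.05, outcomes that the 0 counts in both groups fixed in advance.

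Of 47 listed genes of the 2-cell programme, 35 were tested between the genotypes at 2c. In embryos labelled matPlag1KO 1 was called higher and 1 lower, beside 2.3% and 2.62% of all tested genes, and their median log2 fold change was 0.66, beside 0.12 over all tested genes. Tdpoz4, of a family of TRAF and BTB domain genes, was higher (3.37 ± 0.67, SE, edgeR adjusted p = 0.00142), with a median of 14.2 CPM in WT and 33.8 in matPlag1KO and a highest of 50.04 and 946. Eif1a, a translation initiation factor, was lower (-1.51 ± 0.43, adjusted p = 0.0253). Unlike most of the list, Eif1a rose further from 2c to 8c, by a log2 fold change of 3.75 in WT and 4.83 in matPlag1KO. Zfp352 did not pass the test (0.14 ± 0.33, adjusted p = 0.871). From MII to 2c, 26 of the 35 were called higher and 4 lower in WT, beside 14.1% and 51.3% of all tested genes, and 29 and 4 in matPlag1KO, beside 13.5% and 50.3%. From 2c to 8c 23 were called lower and 2 higher in WT, beside 16.2% and 31.9%, and 26 and 3 in matPlag1KO, beside 19.5% and 29.1%. The list was made of genes known for a transient 2c programme. Some of them, such as Tdpoz4 with 0 counts in WT and 1 in KO oocytes, passed the filter on low counts through the embryo libraries. These stage counts were thus partly set in advance and add no support.

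Of 10 tested activators of the programme, 0 were called higher and 2 lower at 2c, beside the same 2.3% and 2.62% of all tested genes, which hold for each list at 2c. Dppa2 fell from a mean of 531 ± 248 CPM in WT (SD, n = 11) to 180 ± 101 in matPlag1KO (log2 fold change -1.57 ± 0.26, SE, edgeR adjusted p = 1.27e-04), and Dppa4 from 368 ± 121 to 141 ± 86.6 (-1.39 ± 0.32, adjusted p = 0.00482). These partner proteins bind the Dux promoter region and lie upstream of it. Dux had 6 counts in 2 of 11 WT embryos and 22 in 8 of 11 matPlag1KO embryos (1.40 ± 0.79, adjusted p = 0.305), and many near-identical copies of it exist. Dppa2 and Dppa4, as called, thus had the opposite sign to the estimate for Zscan4c.

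Beside 2.3% of all tested genes called higher and 2.62% lower, 1 of 19 listed repressors of the programme, all tested, was called higher and 0 lower: Max, a partner of MYC (1.53 ± 0.45, SE, edgeR adjusted p = 0.0326). Of 18 tested genes of telomeres and of ZSCAN4 partners, 2 were called higher and 1 lower. Tinf2, of the shelterin complex, rose from 35.8 ± 12.7 to 85.5 ± 33.5 CPM (SD, n = 11 each, log2 fold change 1.23, adjusted p = 0.0125), Uhrf1, which guides maintenance DNA methylation, was higher (1.32, adjusted p = 0.0389), and Rnf20, a ubiquitin ligase of histone H2B, lower (-1.04, adjusted p = 0.0401). Among 24 tested SCAN zinc finger genes outside the cluster, 1 was called higher (Zscan2, 12 counts in 4 matPlag1KO embryos and 0 in WT, adjusted p = 0.0443) and 2 lower. These were Zscan5b, from 449 ± 154 to 197 ± 91.9 CPM (SD, n = 11 each, adjusted p = 0.0426), and Zfp110 (-2.79, adjusted p = 0.0432).

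The 10 genes most like the summed Zscan4 level over the 22 kept 2c embryos were sought among 5601 others with a mean of at least 20 CPM. They were Epb41l4a (r = 0.875), Gm11426 (0.854), Cdo1 (0.834), Lef1 (0.822), Tgfb3 (0.775), Camkmt (0.773), Iqgap3 (0.762), Lamtor5 (0.756), AA536875 (0.752) and Dazap2 (0.75), and the next had 0.747. These are the highest of 5601 values whose median was -0.077, and the points share pools and library preparation. Within pool A (n = 9) r was 0.286 for Iqgap3 and 0.552 to 0.781 for the other 9, and within pool B (n = 13) 0.797 to 0.936. Within WT embryos (n = 11) r was 0.675 to 0.946, and within matPlag1KO embryos (n = 11), whose mean Zscan4 level was higher, 0.474 for Lef1 and 0.542 to 0.902 for the other 9.

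Each of these 10 had a mean of at least 14.8 CPM in oocytes of either genotype, where Zscan4c had 1.93 and 0.425 CPM. Epb41l4a, a gene of the band 4.1 family, had a mean of 74.9 CPM in WT oocytes, 34.2 in WT and 52.3 in matPlag1KO 2c embryos, and 3.96 and 6.09 at 8c. Cdo1, which oxidises cysteine, had 188 CPM in WT oocytes, and 92.2 ± 77.0 in WT against 245 ± 168 in matPlag1KO 2c embryos (SD, n = 11 each, log2 fold change 1.42, edgeR adjusted p = 0.0199). Gm11426 was the other of the 10 called higher in matPlag1KO at 2c (1.78, adjusted p = 0.0194), and 8 were not called. Of all tested genes, 2.3% were called higher. The 10 were picked over both genotypes together, and the Zscan4 sum was higher in matPlag1KO. The choice thus favoured genes higher in matPlag1KO, and these calls are not separate support.

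**Figure D5:**
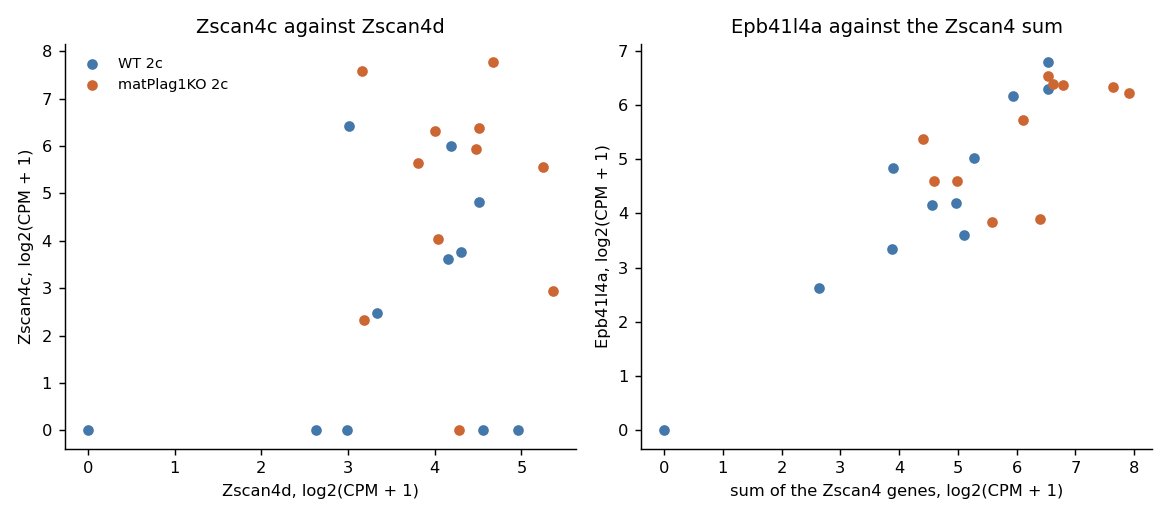
Each point is one of the 22 kept 2c embryos (blue WT, orange matPlag1KO), on log2(CPM + 1) axes. Left, Zscan4c against Zscan4d, with r = 0.304; right, Epb41l4a, the gene with the highest r (0.875), against the sum of the Zscan4 genes, where 1 WT embryo lies at 0 on both axes.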

How the data were processed

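Single oocytes and embryos were profiled by the authors with a modified STRT protocol in 2 pools. Per the study's methods, reads were trimmed, molecular identifiers joined, and reads mapped to mm9 with TopHat and counted per UCSC gene with Homer (HOMER in the submitters' processing notes too). The deposited counts are raw whole numbers, with 92 spike-in rows, and were used as they stand, with 0 unmatched columns.

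Libraries with a median under 1 CPM were left out (12 of 90, 1 of them with 0 spike-in counts), and genes needed 1 CPM in 5 libraries. edgeR 4.0.16 (quasi-likelihood, all 6 groups in one fit, Benjamini-Hochberg over 16511 genes) compared genotypes with TMM factors and stages with spike-in totals as library sizes. limma 3.58.1 and DESeq2 1.42.0 served as alternatives, beside other scalings, no filter on low counts, all libraries above 1000 gene counts, each pool by itself, a pool term, only the groups compared, and each 2c library left out in turn. The edgeR fits were tested on simulated counts with a shared dispersion and no pool or position effects. Genes with few counts at 2c, such as Zscan4a, were not changed there, so that test does not cover them. Named genes were all members, Plag1, Dux, genes of the lists called at 2c, and the 10 with the highest r. Members and lists were chosen with earlier results of these data known.

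Positions pair libraries of the 2 pools. At MII all 14 pairs of opposite genotype correlated in their deviations from group means (0.174 to 0.817). At 2c 6 of 8 pairs were over 0.1, and at 8c 12 of 12 (0.126 to 0.461). Of these pairs 2 at 2c and 0 at 8c were of opposite genotype, so the block was read as a pairing of genotypes at MII only. The replicate block in limma-voom used 1 correlation for all stages, 0.255. Sequences were read from NCBIM37 (mm9), with Zscan4e placed by GENCODE vM1, and motif shares from RefSeq promoters (GRCm38.p6), in which 4 of the 6 genes matched.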

Additional observations from a re-analysis of the deposited data

Results flagged for a closer look

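Zscan4c in the 2c libraries left out of the fits stood above the level of the WT libraries left out. The 3 matPlag1KO libraries held 98 counts of Zscan4c among 180197 gene counts, 544 CPM pooled, and the 3 WT libraries 4 counts among 103036, 38.8 CPM. By embryo the matPlag1KO libraries had 382, 718 and 393 CPM on raw totals (16, 61 and 21 counts), each above every kept embryo. Their gene counts, 41889 to 84921, lay under those of the kept matPlag1KO libraries. In the WT libraries 2 values, 215 and 226 CPM, rest on 1 count each. The part of their low coverage in the level of Zscan4c was not tested.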

How the results depend on the processing

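Between genotypes at MII, 0 Zscan4 genes were called as reported, 1 in limma-voom without a block (added after the data were seen) and 2 with the position as a replicate block. With the position as a fixed block in edgeR, Zscan4d was at -1.42 (adjusted p = 0.554). At 2c, 0 were called as reported and 1, Zscan4c, with all libraries above 1000 gene counts, with only the 2 groups fitted, in limma-voom without a block, and with the position as a replicate block. Leaving out 1 library each gave 0 to 1. From MII to 2c in WT, 1 was called as reported, 3 with TMM factors and 2 in pool B alone. The interaction gave 0 as reported, and 1 with TMM factors and 1 with all libraries. The cause of these changes was not tested. Signs turned, with no call, for Zscan4c at MII in pool B (1.73, against WT oocytes at 0), for Zscan4d at 2c in pool A (-0.39, or -0.50 as a mean difference), and for Zscan4a at 2c with all libraries (0.29, or 0.078 as a mean difference), in pool B (0.13) and on leaving out single libraries (-1.03 to 0.020). Over all alternatives for single genes, outside the libraries left out in turn, 146 values kept their sign and side of the threshold, 16 passed it, 5 no longer passed it, and the 6 that changed sign are those just given. At 8c the fit of only the 2 groups gave no value, since no Zscan4 gene had a count. Zscan4b and Zscan4f had too few counts for the filter and were not tested. What depth did to the other calls was not tested.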
